A study of Triticum aestivum with 8 samples.

Results

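Crown and leaf of a synthetic hexaploid wheat line were compared at 24 °C on 4 of the 8 arrays of the series, 2 per tissue, chosen by the tissue and temperature in their labels. The crown arrays hold RNA from shoots with the shoot apical meristem, and the leaf arrays RNA from the first leaf. Both tissues came from seedlings grown for 3 weeks at 24 °C that had not been moved to the cold, and the labels name neither the parents nor the genotype of the line. Each array carried 37826 probes, of which 29689 (78.5%) were well above background, by the scanner software's flag, on both arrays of crown or on both arrays of leaf, and these were tested. The other 4 arrays hold crown after 6 weeks and leaf after 12 weeks at 4 °C, and they give a second, separate comparison of the tissues. The design text speaks of independent experiments within a group, but not of how plants or pots were divided. The p-values therefore measure the spread between the 2 arrays of a group, pooled over all 8 arrays, those at 4 °C included.

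A synthetic hexaploid wheat is bred by crossing a tetraploid wheat with a wild goat grass, so that it carries the same kinds of subgenome as bread wheat. The leaf blade is the main photosynthetic organ of the seedling, and its mesophyll cells are known for abundant transcripts of light-harvesting proteins and of the carbon-fixing enzyme Rubisco. The crown is the compressed base of the shoot, where the apical meristem forms new leaves and tillers from dividing cells, and it is the organ from which winter cereals regrow. The 25 marker names looked for, of mesophyll, meristem, root and vascular tissue, matched 0 probe names, and most probes bear only the name of a contig or a clone. The genes behind them are therefore not named here, and the tissue labels could not be checked against defining genes.

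Levels are given as the log2 of the processed spot signal less the array's 75th percentile, so that a probe at 0 is as bright as that percentile of its array. The crown arrays at 24 °C had correlations of 0.866 to 0.874 with those of crown at 4 °C over the tested probes, and of 0.591 to 0.596 with those of leaf at 24 °C, although their free-text descriptions speak of leaves where titles, source names and tissue entries say crown. Between 75.1% and 75.3% of probes were well above background on the crown arrays, and 72.1% to 73.1% on the leaf arrays. No spot was saturated. Among probes well above background on all 4 arrays, the median gap between replicates was 0.07 in crown and 0.09 in leaf on the log2 scale. Both crown arrays lay on 1 slide and the leaf arrays on 2 others, no scan day was shared by the tissues, and leaf was read on a scanner and with a software version of its own, so that tissue, slide and scan cannot be told apart. The 7 usable E1A spike-in controls read lower on the crown arrays than on the leaf arrays by between -1.38 and -0.88, and the control eQC-40 was at background on 9 and 10 of its 10 spots on the crown arrays, against levels of -0.57 and 0.12 on the leaf arrays. Counts with the arrays scaled to the E1A spike-ins are given below. The part of slide, scan and eQC-40 in the results that follow was not tested.

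Most of the tested probes differed between the tissues. At an adjusted p below 0.05 (limma, Benjamini-Hochberg over all tested probes) and at least 2-fold, 8607 probes were called higher in crown (29% of those tested) and 7677 lower (25.9%), 54.8% in all. The 2 crown arrays did not overlap the 2 leaf arrays at any of these probes, which the rule for a call makes nearly certain, so it adds no separate support. In whole tissue, fewer cells that hold a transcript and less of it per cell cannot be told apart. The median difference over all tested probes was 0.08, and the median size of the difference was 1.17 on the log2 scale. Replicate gaps had a 95th percentile of 0.42 in crown and 0.40 in leaf. These gaps were taken only over the probes well above background on all 4 arrays. Differences of 16-fold or more were called at 2198 probes higher in crown and at 1603 lower, and differences of 64-fold or more at 1039 and 714. These counts include probes at background in 1 tissue, whose folds are fitted rather than measured. Of all the calls, 2202 of the higher and 1301 of the lower had the other tissue at background on both arrays. Among the 25045 probes well above background on all 4 arrays, the order turned: 6064 were called higher in crown and 6149 lower. Of these, 910 and 1054 were at 16-fold or more, and 348 and 432 at 64-fold or more. With the arrays scaled to the E1A spike-ins, the counts over all tested probes were 16152 higher and 3945 lower, and the median of all probes was 1.19, so the balance of higher and lower calls depends on the scaling.

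The balance also varied with signal. In the dimmest 10th of tested probes by mean signal, 44.8% were called higher in crown and 28.1% lower. Of the 2969 probes in that 10th, 1337 had leaf at background and 889 had crown at background on both arrays, and only 308 were well above background on all 4 arrays. Most had thus passed the filter through 1 tissue alone, which favours a difference. In the sixth 10th, near the middle of the range, the shares were 25% and 28.1%. In the brightest 10th, 33.3% were called higher and 19.0% lower, beside 29% and 25.9% over all tested probes. Of the brightest 1%, 99 of 297 probes were called higher in crown and 24 lower. All these shares by signal were taken under the main scaling alone, and whether they hold under the other scalings was not tested.

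**Figure D1:**
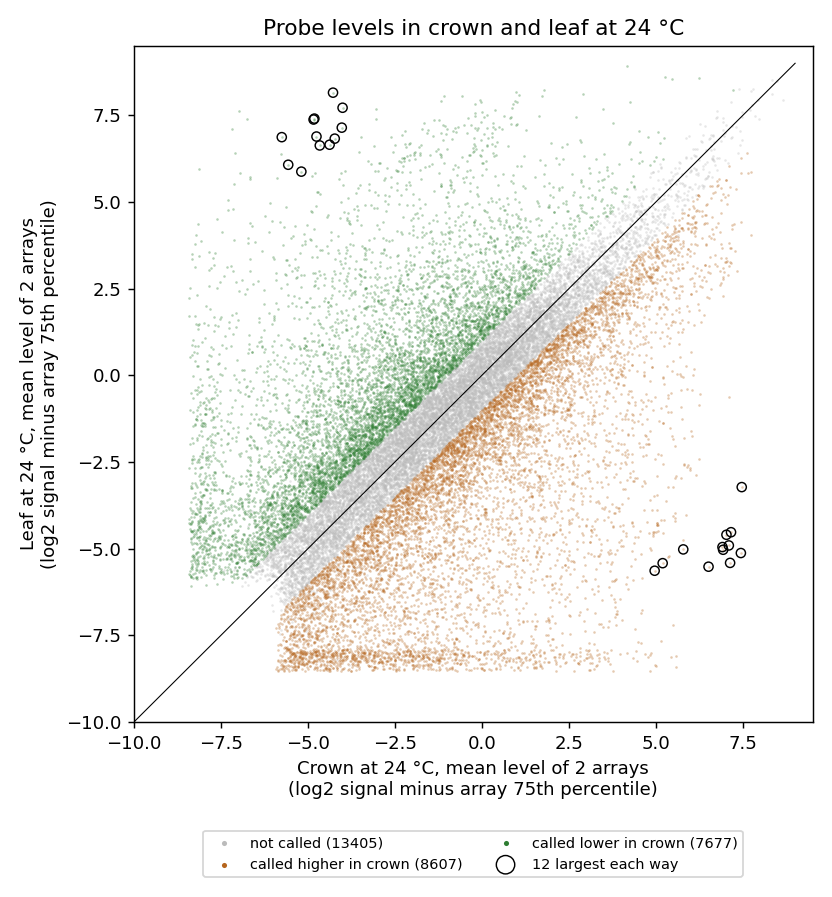
Mean level of each of the 29689 tested probes in crown (x axis) and leaf (y axis) at 24 °C, as log2 signal minus the array's 75th percentile, each the mean of 2 arrays. The 8607 probes called higher in crown lie below the diagonal and the 7677 called lower above it, and circles mark the 12 largest differences each way.

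The 12 largest differences in favour of crown, with 1 probe per contig or clone and all 4 arrays well above background, lay between 10.60 and 12.57 on the log2 scale, or 1555-fold to 6079-fold. The largest was at wheat0130Contig3968, with levels of 7.42 and 7.46 in crown, against -5.44 and -4.81 in leaf (difference 12.57, SE 0.198, adjusted p = 1.13e-07, limma). MUG005H12R990218 followed, with 7.12 and 7.15 in crown, against -5.60 and -5.22 in leaf (difference 12.54). At both probes the replicates of a tissue differed by far less than the tissues did.

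MUG004H05R990615 had levels of 6.50 and 6.52 in crown, against -5.57 and -5.47 in leaf, a difference of 12.03. MUGEST2003_23lib_Contig10592_200 had 7.07 and 7.12 in crown, against -5.00 and -4.82 in leaf, a difference of 12.01. The crown replicates lay within 0.1 of each other at these probes as well. wheat0130Contig9653 (11.97), wheat0130Contig7247 (11.87), whsh_allContig304 (11.69) and wheat0130Contig963 (11.63) came next in size. MUGEST2003_23lib_Contig6083_22 (10.81), MUG021E11R990620 (10.69), MUG008F02R990628 (10.61) and wheat0130Contig13509 (10.60) closed the list. Over the 12 probes, crown levels ranged from 4.96 to 7.47 and leaf levels from -5.64 to -3.16, with adjusted p between 3.02e-08 and 1.13e-07 (limma). By name, 5 of the 12 were wheat0130Contig probes, 4 MUG, 2 MUGEST2003_23lib_Contig and 1 whsh_allContig. Among all 29689 tested probes these families held 11882, 1220, 5538 and 904.

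All 12 were called higher in crown at 4 °C too, on arrays that the 24 °C levels did not use (the fit's estimate of spread is shared), and each difference was smaller there, from 4.38 to 10.14. The probes were chosen as the largest at 24 °C, so smaller differences on other arrays can follow from that choice. For 7 of them both leaf arrays at 4 °C lay above 0, between 0.75 and 2.24, where the leaf arrays at 24 °C lay at or below -3.16, and the other 5 had leaf levels below 0 at 4 °C as well. At wheat0130Contig3968, for example, crown at 4 °C read 6.73 and 6.74, against 2.24 and 2.24 in leaf. At wheat0130Contig7247, by contrast, crown at 4 °C read 4.38 and 4.41, against -5.81 and -5.69 in leaf.

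The 12 largest differences in favour of leaf lay between -12.62 and -11.03 on the log2 scale, which is 2091-fold to 6305-fold lower in crown. At whsh_allContig356 the crown arrays read -5.49 and -6.01, against 6.75 and 6.98 on the leaf arrays (difference -12.62, SE 0.189, adjusted p = 9.67e-08, limma). At wheat0130Contig15705 they read -4.29 and -4.27, against 8.08 and 8.23 in leaf (difference -12.43). The tissues did not come near each other at either probe.

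At whsh_allContig48 the levels were -4.69 and -4.94 in crown, against 7.42 and 7.39 in leaf, and at whsh_allContig1137 they were -4.71 and -4.96 in crown, against 7.43 and 7.32 in leaf. Both differences rounded to -12.22, and the files do not say whether these contigs are copies of 1 gene. The rest of the list comprised wheat0130Contig57 (-11.72), whsh_allContig904 (-11.64), MUGEST2003_23lib_Contig20709_594 (-11.64), wheat0130Contig14378 (-11.29), wheat0130Contig14974 (-11.17), whsh_allContig289 (-11.07), whsh_allContig1219 (-11.06) and wheat0130Contig12667 (-11.03). Over the 12 probes, crown levels ranged from -6.01 to -3.96 and leaf levels from 5.87 to 8.23. Of these probes 6 carried whsh_allContig names, 5 wheat0130Contig and 1 MUGEST2003_23lib_Contig, families that held 904, 11882 and 5538 of the 29689 tested probes.

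All 12 had likewise been chosen as the largest at 24 °C. They were also called lower in crown at 4 °C, again with smaller differences, of 2.60 to 11.43 in size. The smallest was at wheat0130Contig14378, where crown at 4 °C read -1.54 and -1.61, against 1.00 and 1.05 in leaf. At 24 °C the same probe read -4.57 and -4.75 in crown, against 6.63 and 6.63 in leaf. The largest was at whsh_allContig1137, with -4.89 and -4.98 in crown at 4 °C, against 6.44 and 6.54 in leaf.

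**Figure D2:**
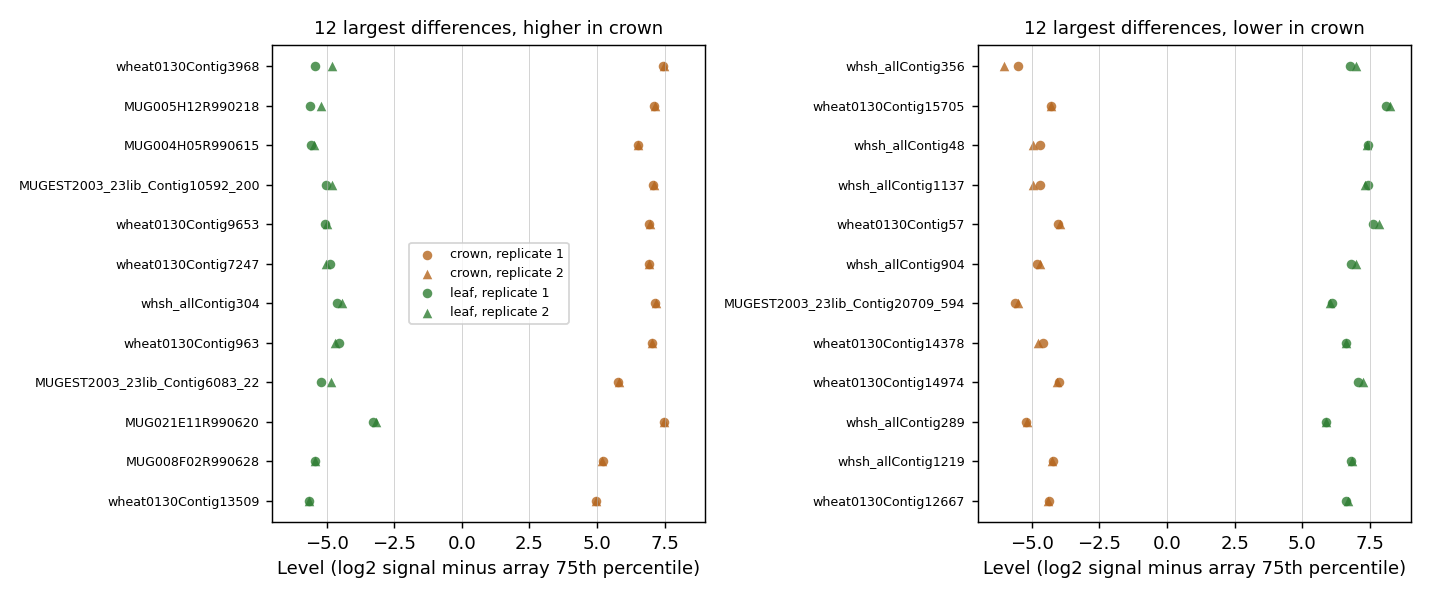
Levels on each of the 4 arrays at 24 °C (log2 signal minus the array's 75th percentile) for the 12 largest differences higher in crown (left) and lower in crown (right), with crown in brown, leaf in green, circles for replicate 1 and triangles for replicate 2. Crown points lie between 4.96 and 7.47 on the left and between -6.01 and -3.96 on the right, and at no probe do the tissues overlap.

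A probe at background on both arrays of 1 tissue has only a bound there, so its fold is given as at least the mean of the bright tissue over the lowest signal still well above background, or over the probe's own signal where that was higher. At 2304 probes crown was well above background on both arrays and leaf on neither, and 2202 of these were called higher in crown. The bound was at least 2-fold for 1936 of them (84.0%) and at least 16-fold for 773, with a median of 6.47-fold. The reverse, leaf well above background on both arrays and crown on neither, held at 1412 probes. Of these 1301 were called lower in crown, with a bound of at least 2-fold for 1077 (76.3%), at least 16-fold for 332, and a median of 3.87-fold. Both sets passed the filter through 1 tissue alone, so their calls and p-values follow largely from how they were chosen. At 4 °C, 1146 of the 1412 were well above background on both crown arrays, and 914 of the 2304 on both leaf arrays. The lowest signal well above background was lower on the 4 °C arrays (levels of -8.47 to -7.89) than on those at 24 °C (-6.35 to -6.04), and its part in these last counts was not tested.

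The largest bounds in favour of crown were at wheat0130Contig7343, MUG001E05R990520, wheat0130Contig6580 and wheat0130Contig16067. At wheat0130Contig7343 crown read 5.56 and 5.58 and was at least 3476-fold higher than leaf (adjusted p = 1.62e-07, limma). For MUG001E05R990520 the crown levels were 5.57 and 5.56 and the bound was at least 3459-fold. Both leaf arrays were at background at these probes.

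At wheat0130Contig6580 crown read 5.51 and 5.46, at least 3178-fold higher than leaf, although the leaf signals of -8.47 and -5.95 were far apart. wheat0130Contig16067 had crown levels of 5.40 and 5.47 and a bound of at least 3162-fold. At 4 °C the crown levels of wheat0130Contig6580 were -3.89 and -3.74, whereas wheat0130Contig7343, MUG001E05R990520 and wheat0130Contig16067 had crown levels of 5.26 or more there. All 4 probes were called higher in crown at 4 °C.

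In favour of leaf the largest bounds were at whsh_allContig1273, whfl_allContig658, wheat0130Contig135 and wheat0130Contig10368. At whsh_allContig1273 crown was at background, against levels of 7.62 and 7.63 in leaf, so that crown was at least 13466-fold lower (adjusted p = 3.03e-08, limma). The bound was at least 11454-fold lower in crown for whfl_allContig658, at least 9419-fold for wheat0130Contig135 and at least 5851-fold for wheat0130Contig10368. At 4 °C all 4 were again called lower in crown, and the leaf levels of whsh_allContig1273 there were 0.86 and 0.64.

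The probe names fall into 43 families by prefix, and the files do not state what a prefix stands for. Of the 41 families with at least 50 tested probes, 27 had more probes called lower in crown than higher and 12 more called higher. With the arrays scaled to the spike-ins these numbers were 3 and 38, whereas under the other scalings run 24 to 34 families had more lower calls. The family furthest towards leaf was whsh_allContig, with 110 of 904 tested probes called higher in crown (12.2%) and 534 lower (59.1%), beside 29% and 25.9% over all tested probes. Its median difference was -2.09. It held 313 probes called at least 16-fold lower in crown, 34.6% of its tested probes and 19.5% of all such calls, while making up 3.04% of the tested probes. Among all probes tested, 5.40% of tested probes were called lower in crown by at least 16-fold.

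The clone families furthest to the same side were whv, with a median of -1.14 (17 higher and 91 lower of 173 tested), whsh (-1.11), whsd (-1.01) and whkv (-0.92). Not all clone families lay there: whdp, for example, had a median of 0.67 and whca of 0.34. On the crown side MUG had a median of 1.02, with 611 of 1220 tested probes called higher (50.1%) and 155 lower (12.7%), and yNPF had 1.11, with 47 and 17 of 90. The family of most probes, wheat0130Contig, had 3986 higher and 2391 lower of 11882, with a median of 0.30, and MUGEST2003_23lib_Contig had 1443 and 1622 of 5538, with a median of -0.09. A scaling that multiplies each array by a constant cannot move a family relative to the median probe. Under the 4 alternatives that can (quantile normalization, cyclic loess, normexp and a common floor), the family medians less that of all tested probes ranged from -2.20 to -1.45 for whsh_allContig, from 0.76 to 0.91 for MUG and from 0.74 to 1.04 for yNPF.

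On the separate arrays at 4 °C whsh_allContig had a median difference of -1.29, with 150 probes called higher and 493 lower of 924, and of its 528 probes called lower at 24 °C and tested at 4 °C, 421 (79.7%) were called lower again, beside 61.7% over all probes. Of its 110 called higher, 82 (74.5%) were called higher again, beside 75.4% over all probes. MUG had a median of 1.35 at 4 °C, with 701 higher and 113 lower of 1264. Of its 611 probes called higher at 24 °C, 559 (91.5%) were called higher again, and of its 154 called lower and tested at 4 °C, 69 (44.8%) were called lower again. Among probes at background in 1 tissue at 24 °C, whsh_allContig had 12 at background in leaf and 72 at background in crown, and MUG had 103 at background in leaf and 7 at background in crown, where 7.76% and 4.76% of all tested probes had leaf and crown at background.

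**Figure D3:**
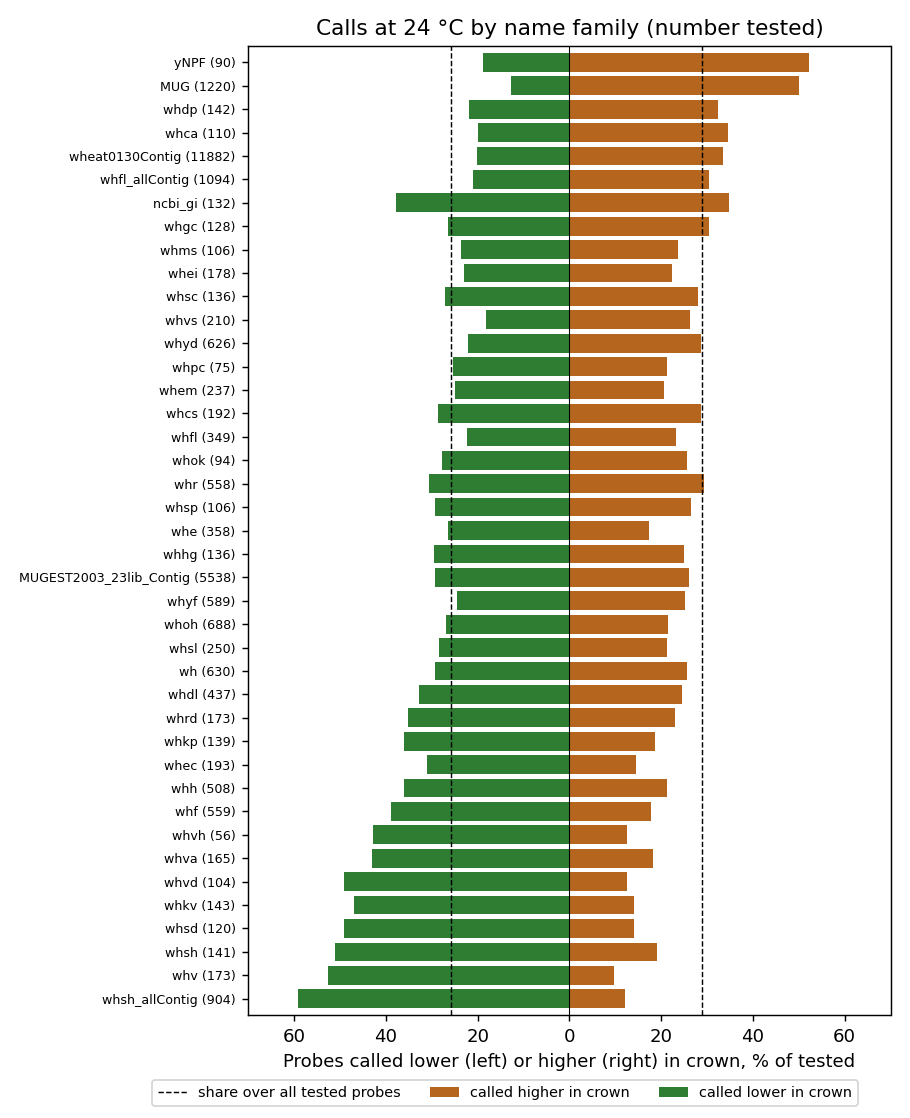
Share of tested probes called higher in crown (brown, to the right) and lower (green, to the left) at 24 °C in the 41 name families with at least 50 tested probes, ordered by median difference, with the number tested in brackets. Dashed lines mark the shares over all tested probes, 29% and 25.9%, and whsh_allContig at the bottom has 59.1% of its probes on the lower side.

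Many clones carry a pair of probes, 1 named with a leading r and 1 without, and the files do not state what the r stands for. Both probes were tested for 1391 clones. They were called higher in crown together at 178 clones, lower together at 273 and in opposite directions at 33, which is 6.82% of the clones with both probes called. At 501 clones 1 probe alone was called, and across clones the differences of the paired probes correlated at r = 0.749. Of 108 clones whose probe without r was called at 16-fold or more, the mate was called in the same direction at 104 and in the opposite direction at 1.

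The paired probes did not lie at the same difference. The probes without r had a median difference of -0.56, with 228 called higher in crown (16.4%) and 536 lower (38.5%), whereas those with r had a median of 0.04, with 364 higher (26.2%) and 341 lower (24.5%). Within a clone the probe with r read higher in crown minus leaf by a median of 0.77 (quartiles 0.04 and 1.40), and in 76.0% of clones. Under normexp background correction the median was 0.44. The same gap was 0.71 to 0.85 in each of the 4 pairings of a crown with a leaf array, and -0.09 and -0.03 between the replicates of crown and of leaf. It was above 0 in 26 of the 28 families with at least 10 such clones, and 0.70 over the 946 clones with both probes well above background on all 4 arrays.

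At 4 °C the paired probes lay close to the same difference: the median gap was -0.05, it lay between -0.12 and 0.01 in the 4 pairings, and the probe with r was the higher in 47.1% of clones. Compared within a tissue across temperature, it was -0.64 to -0.53 in crown and 0.19 to 0.30 in leaf (4 °C minus 24 °C). Over all tested clone probes at 24 °C, paired or not, those without r were called higher in crown at 886 and lower at 1856 of 5003 probes, and those with r at 1072 and 785 of 3555. The clone families furthest towards leaf lay on that side with both kinds of probe: the median was -1.39 without r and -0.82 with r in whv, -1.77 and -1.03 in whsh, -1.28 and -0.85 in whsd, and -1.56 and -0.43 in whkv. Contig names have no leading r. Scan day, scanner and software version move with the tissues at 24 °C, and their part in the gap was not tested.

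**Figure D4:**
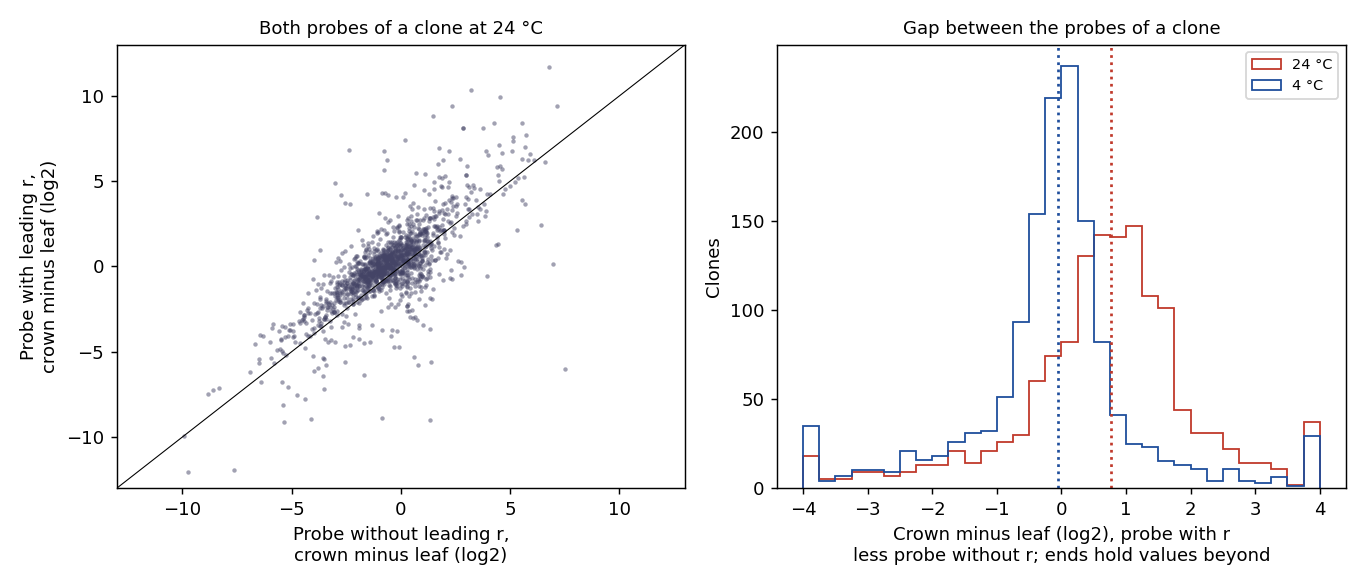
Left, crown minus leaf at 24 °C (log2) of the probe without a leading r (x axis) and of the probe with it (y axis) for 1391 clones, with the line of equality. Right, the number of clones by the gap between their probes (log2) at 24 °C in red and at 4 °C in blue, with dotted lines at the medians of 0.77 and -0.05 and the outermost bins holding all values beyond them.

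The widest disagreements between oppositely called probes of a clone were at whgc11o19, whf24h06 and whfl50p24. The probe whgc11o19_24 had levels of 0.11 and 0.09 in crown with leaf at background, at least 78.4-fold higher in crown. Its mate rwhgc11o19_245 had -4.47 and -4.77 in crown, against 1.42 and 1.38 in leaf, a difference of -6.02. At 4 °C both probes of whgc11o19 were called in the same directions as at 24 °C.

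At clone whf24h06, rwhf24h06 was at background in crown, against 1.12 and 1.01 in leaf, which makes it at least 143-fold lower in crown. Its mate whf24h06 was dim in both tissues, with -4.56 and -3.95 in crown, against -5.72 and -5.41 in leaf (difference 1.32, adjusted p = 0.00429, limma). The leaf value of -5.72 was at background, so this difference is partly fitted rather than measured. Under normexp background correction the difference was -0.0312. At clone whfl50p24, rwhfl50p24 had -1.41 and -1.41 in crown with leaf at background, at least 27.6-fold higher in crown, and whfl50p24 had -5.78 and -5.68 in crown, against -3.42 and -3.30 in leaf (difference -2.37). At 4 °C whfl50p24 was called higher in crown, by 1.26, as was its mate, and rwhf24h06 was at background in both tissues and not tested. Among contigs with a probe ending in _p and another ending in _m, 91 pairs were tested (r = 0.427 over pairs). Of these, 14 were called higher together, 6 lower together and 5 in opposite directions. The 5 make up 20% of the pairs with both probes called, beside 6.82% for the clones. In all, 1638 contigs or clones had at least 2 tested probes, whether called or not, and 42 of them held opposite calls.

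Of the brightest 1% of tested probes, the 4 with the smallest differences are given as a description, since they were chosen for likeness. MUGEST2003_23lib_Contig8430_301 had levels of 8.47 and 8.50 in crown, against 8.47 and 8.52 in leaf. For wheat0130Contig2340 they were 7.97 and 7.92 in crown, against 7.96 and 7.94 in leaf. wheat0130Contig14904 and whsh_allContig435 differed by 0.01 each. With the arrays scaled to the E1A spike-ins all 4 were called higher in crown, MUGEST2003_23lib_Contig8430_301 by 1.11 and wheat0130Contig2340 by 1.11, and under cyclic loess the same pair was called lower, by -1.23 and -1.18. The likeness of these probes therefore depends on the scaling.

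Few probes carry another kind of name. Of 41 spotted probes named by a sequence accession, 19 were tested, and the reference table available matched none of them to a gene. Of the 19, 10 were called higher in crown (52.6%) and 3 lower (15.8%), beside 29% and 25.9% over all tested probes. M93342 had levels of 2.71 and 2.65 in crown, against -2.38 and -2.25 in leaf (difference 4.99, SE 0.065, adjusted p = 6.35e-08, limma). AF255053 had -5.31 and -5.24 in crown, against 3.22 and 3.06 in leaf (difference -8.41, SE 0.0774, adjusted p = 3.26e-08, limma). The tissues were well apart at both.

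X95738 was called higher in crown by 2.52, with crown replicates of 0.86 and 1.86 that lay further apart than the leaf replicates of -1.40 and -0.92. AB029454 was called higher in crown by 2.38 (SE 0.533), with 0.92 and 0.86 in crown, against -1.47 and -1.50 in leaf. Its SE pools the spread of all 8 arrays, and the wide pair was leaf at 4 °C, with -2.96 and -1.22. AB011444 lay at the threshold, with -2.28 and -2.28 in crown, against -1.30 and -1.22 in leaf (difference -1.02), and it missed the 2-fold limit without leaf replicate 2 (-0.979). Among the 6 probes named for cold and dehydration genes, RD29B had -4.88 and -4.76 in crown, against -4.80 and -4.32 in leaf (adjusted p = 0.164, limma), and Wcor15, RD29A, cor47, DREB2A and DREB2B were at background on all 4 arrays. RD29B and RD29A are named after Arabidopsis genes that respond to desiccation, and DREB2A and DREB2B after transcription factors that bind dehydration-responsive promoter elements.

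The comparison of crown with leaf at 4 °C called 11240 of 32489 tested probes higher in crown (34.6%) and 7714 lower (23.7%). Weeks in the cold differ between the tissues there, so tissue and duration cannot be told apart. Of the 8443 probes with a higher call in crown at 24 °C that were also tested at 4 °C, 6365 (75.4%) were called higher again and 510 (6.04%) lower. Of the 7611 called lower in crown at 24 °C, 4693 (61.7%) were called lower again and 313 (4.11%) higher. Most probes called at 24 °C were thus called in the same direction at 4 °C. The split at 4 °C depended on the scaling, with 8653 higher and 9742 lower under quantile normalization, 9243 and 10065 under median scaling, and 22905 and 2633 under spike-in scaling.

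Among probes called in opposite directions at 24 °C and 4 °C, rwhr22g15 and whsh_allContig984 were well above background on all 4 arrays at 24 °C. They were named after their values were seen. Each was picked as the extreme of its direction among such probes, by the smaller of its differences at 24 °C and 4 °C. Their values are therefore not typical of opposite calls. At rwhr22g15 crown read 3.95 and 3.99, against -1.04 and -1.12 in leaf at 24 °C, and -5.86 and -6.24, against -0.80 and -0.66 in leaf at 4 °C. At whsh_allContig984 crown read 1.1 and 0.94, against 6.10 and 5.96 in leaf at 24 °C, and -1.40 and -1.29 at 4 °C, where leaf was at background on both arrays. In rwhr22g15 the crown level, and in whsh_allContig984 chiefly the leaf level, differed between the temperatures.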

How the data were processed

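Total RNA was labelled with Cy3 and hybridised to single-colour Agilent arrays, 2 per group. The scanner files hold processed intensity values that Agilent Feature Extraction had background-subtracted within each array, with versions 10.7.3.1 for crown at 24 °C, 9.5.3.1 for leaf at 24 °C and 10.5.1.1 for the other groups, per the file headers. The submitters' processing notes name version 9.5. Columns of kind other were used too: per the file headers, they mark each spot as probe or control and flag it with 1 or 0 for detection, saturation and outliers. A further table of intensities, normalized by the authors, was deposited, and each of its columns equals an array's processed signal times a single factor of 0.993 to 1.89, set by a step not given in the sources used here.

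From these, log2 of the processed signal minus the array's 75th percentile was computed over the 37826 probes, with 1417 control spots set aside. Group means over all 8 arrays were fitted with limma 3.58.1 in R 4.3.3 (4 residual and 1.40 prior degrees of freedom), with Benjamini-Hochberg adjustment over the tested probes. Calls needed an adjusted p below 0.05 and at least a 2-fold difference. An exact permutation test of 2 arrays against 2 cannot go below p = 0.333 and was not used. Values are differences between groups of 2 arrays, and this number limits their precision. The fit was tested on simulated data.

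The named probes are the 12 largest differences each way with all 4 arrays well above background and 1 probe per contig or clone, the 4 largest bounds each way, 4 bright probes of like level, the 3 clones with the widest opposite calls, up to 3 accession-named probes each way (only 2 lower ones qualified) and the 6 probes with gene names. rwhr22g15, whsh_allContig984, whdl6j11, rwhdl6j11 and AF207545 were added after their values were seen. The comparison, the naming rule and the name families were chosen with earlier results of these data known. Alternatives were quantile, median, cyclic loess and E1A spike-in scaling, normexp background correction (offset 50, on the median spot signal, as the files used hold no mean), the authors' table, other filters on dim probes, a common floor, a fit of 4 arrays alone, replicate and slide blocks, an intensity trend, limma treat against 1.5-fold, and leaving out each array. Setting outlier spots to missing, and the gap between the probes of a clone under each setting, were added after the data were seen.

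Replicate numbers did not pair the samples: the deviations of same-numbered crown and leaf arrays at 24 °C correlated at 0.10, and over all 6 pairs of groups at -0.09 to 0.10.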

Additional observations from a re-analysis of the deposited data

Results flagged for a closer look

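Values in this section are crown minus leaf at 4 °C less crown minus leaf at 24 °C on the log2 scale, tested as an interaction in the limma fit of all 8 arrays. Opposite calls at the 2 temperatures were made at 510 probes higher in crown at 24 °C and lower at 4 °C, and at 313 probes lower at 24 °C and higher at 4 °C. Since each call needed at least 2-fold, the interaction was called at all of these probes and adds no separate evidence for them. Crown spent 6 weeks and leaf 12 weeks in the cold and no scan day was shared by the groups, so tissue, duration and scan cannot be told apart in these counts.

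Among probes measured in both tissues at 24 °C, the difference was -10.37 at rwhr22g15 (adjusted p = 1.52e-06, limma) and 12.83 at whsh_allContig984 (adjusted p = 6.38e-05, limma), where leaf at 4 °C was at background, so that the second value is fitted rather than measured. Both probes were picked as extremes of the opposite calls. Among probes at background in crown at 24 °C, the fitted value was 12.69 at whdl6j11 and 17.61 at rwhdl6j11, which are the 2 probes of 1 clone, and 6.56 at AF207545. At rwhdl6j11 the levels at 24 °C were at background in crown, against 4.82 and 4.75 in leaf, and at 4 °C they were 0.72 and 0.70 in crown, against -4.97 and -4.97 in leaf. At whdl6j11 leaf read 0.88 and 0.95 at 24 °C, with crown at least 128-fold lower, and at 4 °C crown read -3.25 and -3.34. At AF207545 crown was at least 17.0-fold lower at 24 °C, and at 4 °C crown read 2.27 and 2.40, against 1.24 and 1.31 in leaf.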

How the results depend on the processing

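No probe called at 24 °C was called in the opposite direction under any alternative run, but calls were lost and their balance moved. Many alternatives could not turn a call. A constant factor per array moves all differences alike, here by too little, and other filters, blocks and priors leave the differences unchanged. Normexp kept 72.9% of the calls at 24 °C (4411 lost), spike-in scaling 77.1% (3732 lost) and cyclic loess 94.3% (921 lost). Scaling to the E1A spike-ins gave 16152 higher in crown and 3945 lower at 24 °C (80.4% of calls higher, against 52.9%) and 22905 and 2633 at 4 °C (89.7%, against 59.3%). At 4 °C quantile normalization and median scaling gave 47.0% and 47.9% of calls higher. At 24 °C the share lay between 48.0% and 53.8% under the alternatives other than the spike-in scaling, and normexp gave 5977 higher and 5978 lower. Leaving out each array in turn gave 8376 to 8893 higher and 7625 to 7830 lower at 24 °C, and 10878 to 11202 and 7566 to 7820 at 4 °C, with the lone array left in a group taken to vary like the others. With replicate number as a block the counts were 8593 and 7674 at 24 °C and 11213 and 7712 at 4 °C, which changed no call of a named probe. Slide as a random block gave 8679 and 7729, with an estimated correlation of -0.72. Each group other than leaf at 24 °C lay on a single slide of its own, so this setting could not separate slide from group.

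Over the 53 named probes that were tested, 981 of 992 alternative values kept their direction and call, among them all 456 for the 24 largest differences. Reversed were MUGEST2003_23lib_Contig8430_301 (1.11), wheat0130Contig2340 (1.11) and AB011444 (0.0924) under spike-in scaling, and whf24h06 (-0.0312) under normexp. The bright probes of like level also gained a call, MUGEST2003_23lib_Contig8430_301 (-1.23) and wheat0130Contig2340 (-1.18) under loess, and wheat0130Contig14904 (1.12) and whsh_allContig435 (1.13) under spike-in scaling. AB011444 also lost its call under loess (-0.81), normexp (-0.97) and without leaf replicate 2 (-0.979). The gap between the probes of a clone was 0.93 under quantile normalization and 0.44 under normexp. The causes were not tested. A probe near background has its difference limited by the lowest signal well above background on each array.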
